A study of Mus musculus with 2 samples.

Results

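The granular layer is the last living layer of the epidermis, and the genes described here encode the proteins that its keratinocytes use to build the cornified envelope, the protein shell that replaces the cell membrane of dead surface cells. They were taken from the deposited gene table by symbol, from a list that joins the Lce1 family, fused S100 proteins, plakins, processing enzymes and late differentiation proteins. All 35 listed genes had a row, out of 23183 genes in the table. The list leaves out the Sprr and Lce3 families, the kallikreins and the transglutaminases.

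RNA was measured in neonatal mouse epidermis in 2 libraries, both on the C57BL/6 background. The WT library came from wild-type animals, and the L19M library from animals homozygous for Foxn1 L19M, an allele of the keratinocyte and thymic transcription factor Foxn1 named for an amino acid replacement. The sources used here do not give the animals' age in days, their sex, or how many were pooled per library. With 1 library per genotype no test between genotypes was possible, and every difference below compares these 2 libraries only. The stated question was keratinocyte function in the presence of either allele.

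As background, the envelope is put together in steps. Plakins and involucrin line the inside of the membrane first, loricrin and other small proteins are then crosslinked onto that scaffold by transglutaminases, and late cornified envelope (Lce) proteins join late. Fused S100 proteins fill keratohyalin granules and the envelope, and proteases of the granular layer process profilaggrin. Most of the structural genes lie together on mouse chromosome 3 in the epidermal differentiation complex.

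Values are FPKM, fragments scaled by transcript length and library total, as the authors computed them. A log2 ratio is log2((FPKM in L19M + 1)/(FPKM in WT + 1)), so a negative value means lower in L19M. A gene counted as measured at a mean of at least 1 FPKM over both libraries, and as called at 2-fold or more on that scale. Depth, estimated from the steps of low FPKM values, was 14160000 fragments in WT and 19216000 in L19M. From this, each FPKM ratio has a 95% interval that covers counting error only and says nothing of the spread between animals.

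Keratinocyte markers of the labelled tissue were abundant. The summed FPKM of 16 spinous keratinocyte markers was 48419 in WT and 48547 in L19M, and that of 15 basal markers was 7813 in WT and 8432 in L19M. The spinous sum rests mostly on very abundant genes such as Krt10 (9337 and 8193 FPKM) and Krt1 (8459 and 9069 FPKM). Of the 15 spinous markers measured, 4 were at least 1.5-fold lower in L19M (26.7%, against 4.07% of all measured genes) and none was 1.5-fold higher. Foxn1 RNA, which does not check an amino acid allele, had 3.74 FPKM in WT and 5.44 in L19M. Markers of other cell types differed between the libraries. Summed FPKM was 998 in WT and 170 in L19M for 15 hair follicle genes, and 131 and 63.1 for 9 sebocyte genes. The most abundant of the hair follicle genes were the inner root sheath keratins Krt71 (291 and 49.4 FPKM), Krt25 (231 and 44.3 FPKM) and Krt27 (171 and 26.4 FPKM). Summed FPKM was 19.1 in WT and 28.3 in L19M for 8 endothelial genes. For 10 fibroblast genes it was 1195 and 1343, and without Vim, the vimentin gene (258 and 423 FPKM), it was 938 and 921 for the other 9. For 11 immune genes it was 262 and 381. Of these, S100a8 and S100a9, which keratinocytes can also express, summed to 48.4 and 304 FPKM, and the other 9 to 214 and 76.8 FPKM. Of the 10 immune genes measured, 2 were at least 2-fold higher and 4 at least 2-fold lower (median log2 ratio -0.29). No gene of these lists was at 0 in either library. The part of these differences in the values below was not tested. In bulk RNA, fewer granular cells and less RNA per cell cannot be told apart.

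Most envelope and granular layer genes had similar levels in both libraries, with a shift towards lower values in L19M. All 35 passed the 1 FPKM floor, the least abundant at 24.7 FPKM in WT. Of them 1 was at least 2-fold higher in L19M, Rptn, against 0.532% of all 11841 measured genes, and 1 was at least 2-fold lower, Lce1m, against 1.71% of all measured genes. Each count is 2.86% of the 35, and a count of 1 is too small to set apart from those shares. At 1.5-fold, Nccrp1 joined Rptn, which made 2 higher against 1.99% of measured genes, and Lce1m stayed the 1 lower gene against 4.07%. The other 32 genes had log2 ratios between -0.44 and 0.20.

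The shift is small. Abundant genes as a whole were shifted the same way, by less than the full list. Without the Lce1 family, the list's median was near that of abundant genes. The median log2 ratio of the 35 genes was -0.17, with quartiles of -0.34 and 0.01, and that of all measured genes was 0.0049. Log2 ratios were below 0 for 25 of the 35 (71.4%) and for 49.2% of all measured genes. When FPKM was rescaled to the same total in both libraries, 24 of the 35 were below 0 and the median was -0.11. Among the 814 genes with a mean of at least 100 FPKM, 66.2% were below 0 and the median was -0.09. The 31 genes of the list at that level, which are among the 814, had 71.0% below 0 and a median of -0.17. Their summed FPKM had a ratio of 0.799, against 0.958 for the 814. The 21 genes outside the Lce1 family, at any level, had 61.9% below 0. Their median was -0.094, against -0.0915 for the 814, and their summed FPKM had a ratio of 0.830.

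In amount of RNA, the list summed to 49594.8 FPKM in WT and 39712.9 in L19M, which is 5.85% and 4.88% of each library's FPKM total. Krtdap made up 47.3% of that difference, Lce1m 21% and Lor 19.9%. The other genes together had 17840.3 FPKM in WT and 16671.3 in L19M, for a ratio of 0.934. The lower sum therefore came mostly from 3 very abundant genes.

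**Figure D1:**
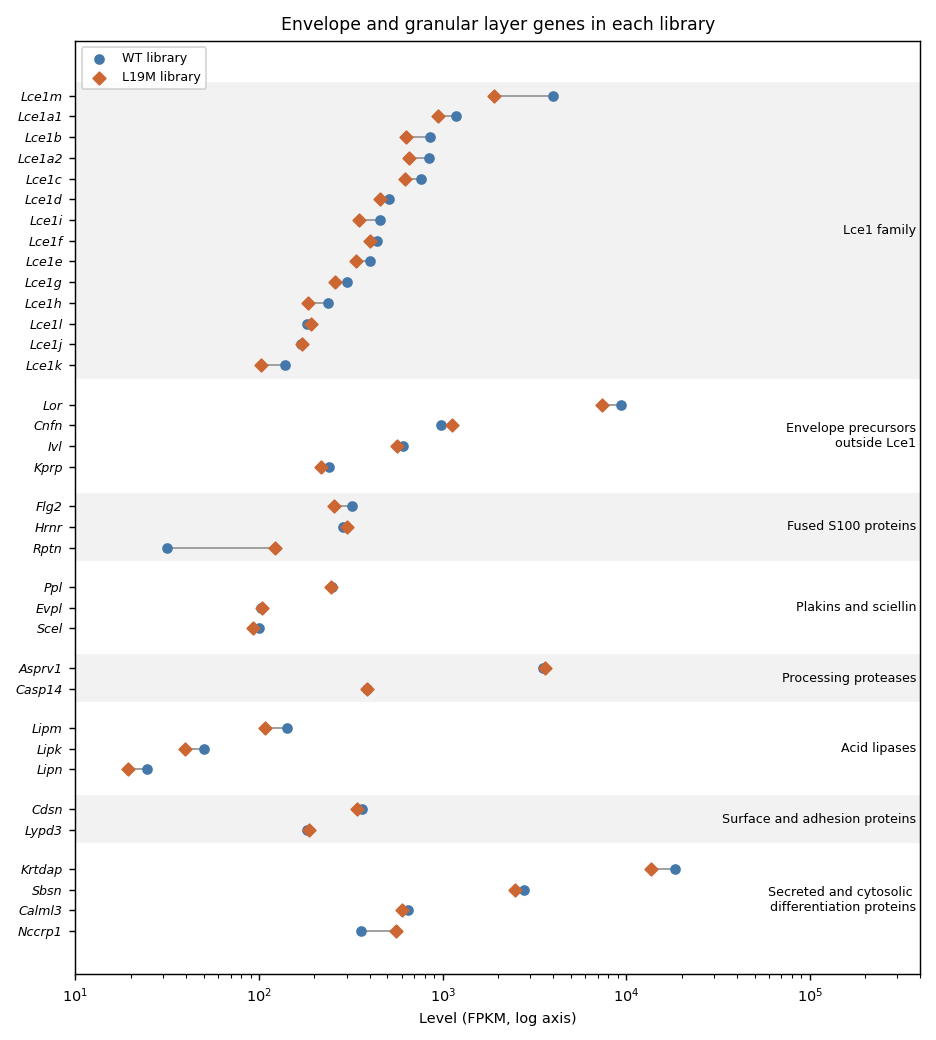
Level of each of the 35 genes in FPKM (log axis) in the WT library (circles) and the L19M library (diamonds), grouped by role and ordered by the WT level, with a line joining the 2 values of a gene. Most pairs nearly touch, while Lce1m (3970 and 1897 FPKM) lies to the left in L19M and Rptn (31.6 and 122.6 FPKM) and Nccrp1 (358 and 558 FPKM) to the right.

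The Lce1 family, small proteins added late to the envelope, was the group with the lowest median among those of more than 3 genes. The 3 acid lipases had a lower median, of -0.34. Of the 14 Lce1 genes 12 had log2 ratios below 0, with a median of -0.30, and the count of 12 was the same under each of the 4 other scalings tried. Summed over the family, which shares sequence between members, the level was 10448.7 FPKM in WT and 7212.9 in L19M, for a ratio of 0.690 (counting interval 0.684 to 0.697). Lce1m alone made up 64.1% of that difference. Without it the sums were 6478.4 and 5315.4 FPKM, a ratio of 0.820 (0.810 to 0.831).

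Lce1m stood apart from its family in level and in difference. It had 3970 FPKM in WT and 1897 in L19M, for a ratio of 0.478 (counting interval 0.470 to 0.486) and a log2 ratio of -1.06. Of all measured genes, 97.9% had log2 ratios closer to 0. In the WT library it was the most abundant Lce1 gene, at 3.37 times the level of Lce1a1, and in L19M it was at 2.0 times that level. It made up 38% of the family's RNA in WT and 26.3% in L19M. Its log2 ratio lies just past the 2-fold rule and was -1.01 when the totals were made equal.

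The other Lce1 genes had nearly the same order of levels in both libraries. Lce1a1, the most abundant of them, had 1178 FPKM in WT and 946 in L19M. Lce1b had 857 and 630 FPKM, Lce1a2 had 847 and 658 FPKM, and Lce1c had 759 and 623 FPKM. These 4 neighbours at one end of the cluster had ratios from 0.735 to 0.821. In the middle of the cluster, Lce1d had 511 FPKM in WT and 454 in L19M, Lce1e had 400 and 337 FPKM, and Lce1f had 439 and 402 FPKM. Lce1g had 302 and 261 FPKM, Lce1h had 239 and 186 FPKM, and Lce1i had 456 and 351 FPKM. All of these were lower in L19M by more than counting error, with ratios from 0.770 for Lce1i to 0.915 for Lce1f. At the far end, Lce1k had 138 FPKM in WT and 103 in L19M, for a ratio of 0.742. Lce1j (169 and 172 FPKM) and Lce1l (183 and 193 FPKM) were the family members with higher values in L19M, and their counting intervals, 0.941 to 1.09 and 0.979 to 1.14, include equality.

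Level followed position. Along chromosome 3 from Lce1a1 to Lce1l, a stretch of 204.8 kb, the level decreased with gene order in WT (Spearman's rho -0.92 over 13 genes) and in L19M (rho -0.91), and Lce1a1 was 8.53 times as abundant as Lce1k in WT and 9.23 times in L19M. These genes share a library and parts of their sequence, so the values describe an order only. The log2 ratio followed gene order less closely (rho 0.32). Lce1m does not belong to that stretch. It lies 166.5 kb beyond Lce1l, on the other side of the Lce3 genes and 2121 bases from Crct1.

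**Figure D2:**
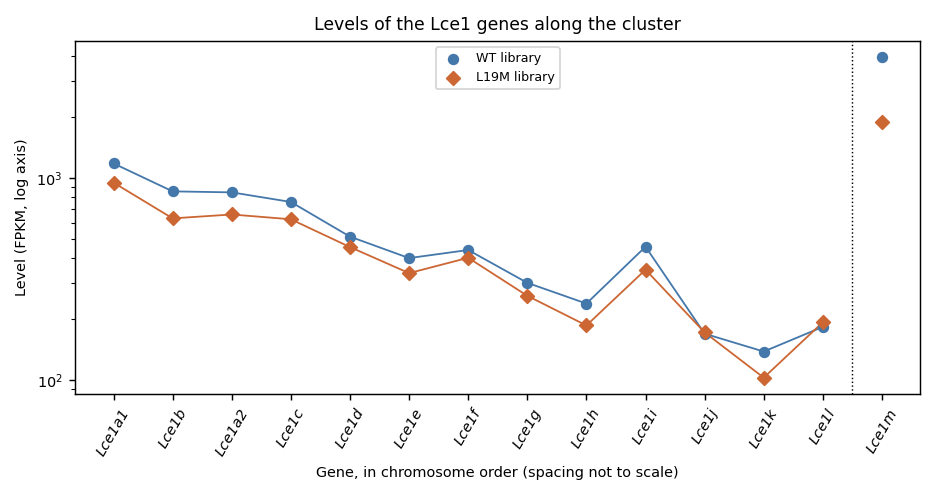
Level in FPKM (log axis) of the 14 Lce1 genes in chromosome order, not to scale, in the WT library (circles) and the L19M library (diamonds), with Lce1m set off by a dotted line because it lies outside the cluster. Levels fall from Lce1a1 (1178 FPKM in WT) to Lce1k (138 FPKM) in both libraries, and the gap between libraries is widest at Lce1m.

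Shared sequence limits single Lce1 values but not that of Lce1m. In the GENCODE M21 transcripts of GRCm38, every 50-base word of the Lce1m transcript was found in no other gene. For the other Lce1 genes the share of such own words ran from 72.9% for Lce1i to 90.9% for Lce1k, and with words of 100 bases the lowest share was 95.1%, for Lce1e. Outside the Lce1 family, 19 of 21 genes had only own 50-base words, Rptn and Nccrp1 among them. Sbsn (90.4%) and Ivl (99.3%) did not. The sources used here do not give the authors' read length or how they handled shared reads.

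Promoters are shown for Lce1m, the gene of the family that differed most, beside Lce1a1 and Lce1l, from either end of the cluster. They are RefSeq sequences of GRCm38.p6, 250 bases before to 50 after the start site, 5′ to 3′ on the gene's strand. Capitals mark matches on either strand to the TATA box word TATAAA, the AP-1 word TGANTCA, the C/EBP word TTGCNNAA, the Grhl word AACNGGTT and the word TAAAAGG, which was added to the search after these sequences were read. Of the 35 genes 28 had a sequence in the table, and Lce1f, Kprp, Ppl, Evpl, Lipk, Calml3 and Nccrp1 did not.
Lce1m promoter, chr3:93019012-93019311, minus strand: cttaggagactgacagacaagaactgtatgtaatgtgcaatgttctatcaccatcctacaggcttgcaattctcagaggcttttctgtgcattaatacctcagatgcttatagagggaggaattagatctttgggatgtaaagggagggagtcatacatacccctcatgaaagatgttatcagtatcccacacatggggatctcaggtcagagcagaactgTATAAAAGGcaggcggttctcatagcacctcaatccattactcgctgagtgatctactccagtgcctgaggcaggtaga
Lce1a1 promoter, chr3:92648258-92648557, minus strand: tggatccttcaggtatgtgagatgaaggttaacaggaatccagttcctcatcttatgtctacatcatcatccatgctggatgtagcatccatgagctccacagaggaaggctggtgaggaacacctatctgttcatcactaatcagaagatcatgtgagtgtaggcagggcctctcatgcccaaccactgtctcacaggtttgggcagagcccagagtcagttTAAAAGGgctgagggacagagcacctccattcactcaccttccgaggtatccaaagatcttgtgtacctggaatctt
Lce1l promoter, chr3:92851237-92851536, minus strand: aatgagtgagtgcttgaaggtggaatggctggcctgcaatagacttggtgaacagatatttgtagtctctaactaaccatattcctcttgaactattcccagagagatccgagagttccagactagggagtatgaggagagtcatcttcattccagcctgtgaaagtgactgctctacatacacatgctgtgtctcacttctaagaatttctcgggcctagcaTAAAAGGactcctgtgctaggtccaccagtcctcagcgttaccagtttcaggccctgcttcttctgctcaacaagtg

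Most Lce1 promoters share 1 short word near the start. It was picked by reading promoters of this family, so a high count among them follows in part from that choice. TAAAAGG was found in 11 of the 13 Lce1 promoters in the table, each time with its first base at position -28 or -27 from the start site, and in 4.73% of all 32851 promoters. None of the 15 other promoters of the list held it. Lce1b and Lce1k lacked it. TATAAA was found in 2 of the 13, Lce1d (position -30) and Lce1m (-29), against 13.6% of all promoters. In both it overlaps TAAAAGG, so the 2 words are not separate there. Other forms of a TATA box were not searched for. No Lce1 promoter held the AP-1, C/EBP, Grhl or Klf (GGGNGTGG) word, against 7.81%, 10.8%, 2.09% and 17.6% of all promoters. With 13 related promoters, such absence cannot be set apart from those shares. GACGC, the core bound by Foxn1, was in Lce1d alone of the 13. In the 28 promoters of the list it was in 3 (Lce1d, Flg2 and Lypd3), against 27.2% of all promoters. The Lce1m promoter had a median identity of 62.8% with the other Lce1 promoters. Lce1l (62.0%) and Lce1k (65.5%) were also low, and the other 10 ranged from 70.2% to 73.7%. These 3 divergent promoters belong to genes with FPKM ratios of 0.478, 1.05 and 0.742 (Lce1m, Lce1l and Lce1k). A relation of promoter sequence to the differences between the libraries was not tested.

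Among the other envelope precursors, loricrin RNA was lower and cornifelin RNA slightly higher in L19M. Lor encodes loricrin, the main protein of the envelope. It had 9384 FPKM in WT and 7416 in L19M, for a ratio of 0.790 (counting interval 0.786 to 0.795). Ivl, for the scaffold protein involucrin, had 605 FPKM in WT and 567 in L19M, for a ratio of 0.937 (0.917 to 0.957). Loricrin RNA exceeded involucrin RNA 15.5-fold in WT and 13.1-fold in L19M. Cnfn, for the envelope protein cornifelin, had 976 FPKM in WT and 1119 in L19M, for a ratio of 1.15 (1.11 to 1.18). Kprp, which encodes a proline-rich keratinocyte protein, had 241 and 216 FPKM. None of these 4 met the 1.5-fold rule.

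The 3 fused S100 genes of the list differed from each other. Rptn, which encodes repetin, had 31.6 FPKM in WT and 122.6 in L19M, for a ratio of 3.88 (counting interval 3.69 to 4.08) and a log2 ratio of 1.92, and 99.0% of all measured genes had log2 ratios closer to 0. Hrnr, for hornerin, had 288 FPKM in WT and 303 in L19M, for a ratio of 1.05 (1.04 to 1.07). Flg2, for filaggrin-2, had 321 and 257 FPKM, a ratio of 0.800 (0.788 to 0.812). Repetin RNA was thus the least abundant of the 3 in both libraries, but the gap narrowed. The Hrnr level was 9.10 times that of Rptn in WT and 2.47 times in L19M. Crnn, Tchh and Tchhl1, fused S100 genes outside the list, had log2 ratios of -1.58, -2.07 and -2.55. Flg had no row under that symbol and could not be described.

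Promoters of Rptn and its neighbour Hrnr, and of Lor, are given as above, because these genes lie in the same complex and had FPKM ratios of 3.88, 1.05 and 0.790.
Rptn promoter, chr3:93393449-93393748, plus strand: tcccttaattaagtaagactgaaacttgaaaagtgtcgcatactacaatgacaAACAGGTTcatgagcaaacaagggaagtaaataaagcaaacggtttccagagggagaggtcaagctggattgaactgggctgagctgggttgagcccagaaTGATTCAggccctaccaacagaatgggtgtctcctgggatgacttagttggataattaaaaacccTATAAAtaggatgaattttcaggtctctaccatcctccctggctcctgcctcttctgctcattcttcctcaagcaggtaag
Hrnr promoter, chr3:93319499-93319798, plus strand: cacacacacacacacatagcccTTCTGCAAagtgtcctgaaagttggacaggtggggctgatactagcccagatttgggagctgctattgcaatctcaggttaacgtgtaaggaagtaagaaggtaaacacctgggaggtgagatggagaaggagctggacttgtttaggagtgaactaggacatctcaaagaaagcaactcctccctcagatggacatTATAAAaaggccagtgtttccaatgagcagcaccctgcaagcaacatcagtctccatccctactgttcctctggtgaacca
Lor promoter, chr3:92083093-92083392, minus strand: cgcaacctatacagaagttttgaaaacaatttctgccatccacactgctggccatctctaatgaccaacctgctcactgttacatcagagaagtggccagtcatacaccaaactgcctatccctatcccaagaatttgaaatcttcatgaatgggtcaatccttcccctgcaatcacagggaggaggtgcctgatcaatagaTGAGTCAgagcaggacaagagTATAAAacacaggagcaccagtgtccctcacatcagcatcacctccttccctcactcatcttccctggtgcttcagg

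All 3 have a TATA box match, at position -31 in Rptn and Hrnr and -27 in Lor. The AP-1 word was in Rptn (position -96) and Lor (-48) and not in Hrnr, and in 8 of the 28 promoters of the list that had a sequence against 7.81% of all promoters. The other 6 were those of Ivl, Flg2, Scel, Lipn, Krtdap and Sbsn. Rptn was the 1 gene of the 28 with the Grhl word (position -197), which was in 2.09% of all promoters. Among the 28, the C/EBP word was in 5 and the Klf word in 3, against 10.8% and 17.6% of all promoters. Genes with the AP-1 word include the gene that was called higher and genes with lower values in L19M. A relation of these words to the differences was not tested.

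**Figure D3:**
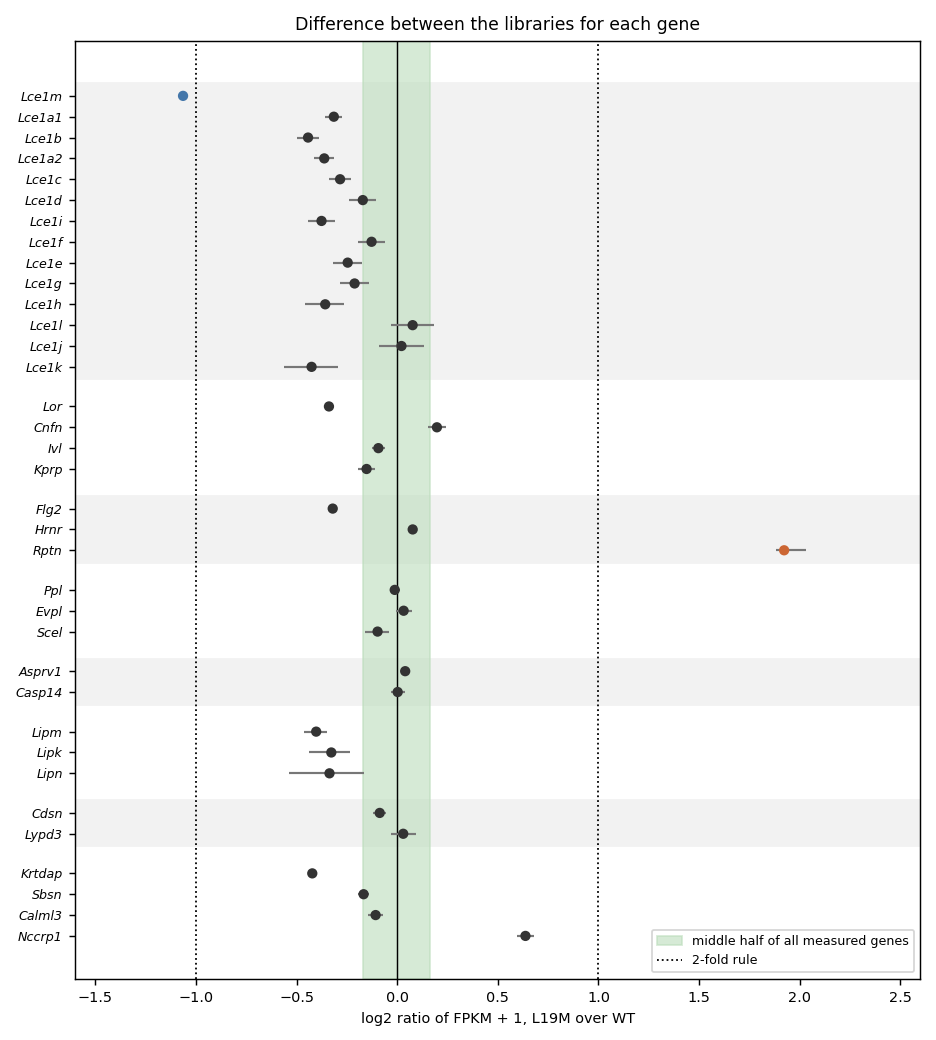
Log2 ratio of FPKM + 1, L19M over WT, for each of the 35 genes in the order of the plot of levels, with bars for the 95% counting interval of the FPKM ratio, a band for the middle 50% of all measured genes (-0.17 to 0.16) and dotted lines at 2-fold. Rptn (1.92) and Lce1m (-1.06) lie beyond the dotted lines, and the plakin and protease genes lie on or beside 0.

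Scaffold and protease genes were level between the libraries. Ppl and Evpl encode periplakin and envoplakin, the plakins of the first scaffold. Ppl had 249 FPKM in WT and 247 in L19M, for a ratio of 0.991 (counting interval 0.974 to 1.01), and Evpl had 102 and 104 FPKM, a ratio of 1.02 (0.995 to 1.05). Scel, for the envelope protein sciellin, had 99.4 and 92.8 FPKM. Casp14, the caspase of cornifying keratinocytes, had 389 FPKM in WT and 390 in L19M, for a ratio of 1.001 (0.978 to 1.03). Asprv1, for an aspartic protease that acts on profilaggrin, had 3513 and 3610 FPKM, a ratio of 1.03 (1.02 to 1.04). FPKM ratios of these 5 genes ran from 0.934 (Scel) to 1.03 (Asprv1), and the sign of the log2 ratio changed for Ppl and Casp14 with the scaling.

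The acid lipases of the late epidermis were lower together by a modest amount. Lipm had 142 FPKM in WT and 107 in L19M, for a ratio of 0.755 (counting interval 0.726 to 0.785). Lipk had 49.96 and 39.6 FPKM, a ratio of 0.793 (0.739 to 0.850), and Lipn had 24.7 and 19.3 FPKM, a ratio of 0.783 (0.687 to 0.893). Lipn rests on 453 estimated fragments in WT and 480 in L19M, the fewest of the list. These genes neighbour each other on chromosome 19. None met the 1.5-fold rule, and Lipm overlaps Ankrd22 on the opposite strand (21.7 and 21.3 FPKM).

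Genes of the cell surface had similar levels. Cdsn encodes corneodesmosin, which holds surface cells together, and had 365 FPKM in WT and 344 in L19M, for a ratio of 0.941 (counting interval 0.919 to 0.963). Lypd3, for a lipid-anchored surface protein, had 183 and 187 FPKM, a ratio of 1.02 (0.978 to 1.07).

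Among secreted and cytosolic proteins of differentiation, Krtdap had the largest difference in FPKM and Nccrp1 was higher in L19M. Krtdap, for a small secreted protein, was the third most abundant gene of the whole table in both libraries, with 18400 FPKM in WT and 13729 in L19M, for a ratio of 0.746 (counting interval 0.738 to 0.754). Sbsn, for the secreted protein suprabasin, had 2772 and 2468 FPKM, and Calml3, for a calmodulin-like calcium sensor, had 652 and 605 FPKM. Nccrp1, which encodes a protein related to the F-box family, had 358 FPKM in WT and 558 in L19M, for a ratio of 1.56 (1.51 to 1.60). Its log2 ratio of 0.64 passes the 1.5-fold rule and not the 2-fold rule, and 94.9% of measured genes were closer to 0. In order of level within the list it moved from place 19 in WT to 13 in L19M, the largest move of the 35, with Rptn next, from 34 to 29.

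The genes lie on chromosome 3 (20 genes) and on other chromosomes (15 genes). The median log2 ratio was -0.27 for the former and -0.09 for the latter, a description in which the Lce1 family makes up most of the first group. Without the Lce1 family, the median of the 21 remaining genes was -0.09. Counting intervals of the FPKM ratio lay below 1 for 24 of the 35 genes and above 1 for 5, and included 1 for 6. These counts rest on FPKM as the authors computed them. Such intervals were not computed for the other measured genes, so the counts have no share to be read against. The spread between animals was not measured and is in none of these intervals.

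Within the epidermal differentiation complex most calls fell on other genes. From Lor to S100a10 the table holds 47 measured genes over 1484 kb (chromosome 3, 92080271 to 93564645, mm10). Of the 20 in the list, 1 was called higher and 1 lower, against 0.532% and 1.71% of all measured genes. Of the other 27, 13 were called higher, all of them Sprr or Lce3 genes, and 5 lower. The list leaves those families out and was chosen with earlier results of these data known, so this contrast follows in part from that choice. The Sprr and Lce3 genes called in that stretch were higher in L19M, except Sprr4. Lce1m (93017807 to 93019060, minus strand) lies beside Crct1, a cysteine-rich gene at 3845 FPKM in WT and 2520 in L19M (log2 ratio -0.61). Rptn (93393699 to 93399442, plus strand) lies between Hrnr, 60.13 kb away, and Tchh, 42.89 kb away, the trichohyalin gene of hair, which had 105.9 and 24.4 FPKM and a log2 ratio of -2.07. Rptn and Tchh thus had log2 ratios of opposite sign, while Lce1m and Crct1 were both below 0 and Hrnr and Rptn both above it.

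**Figure D4:**
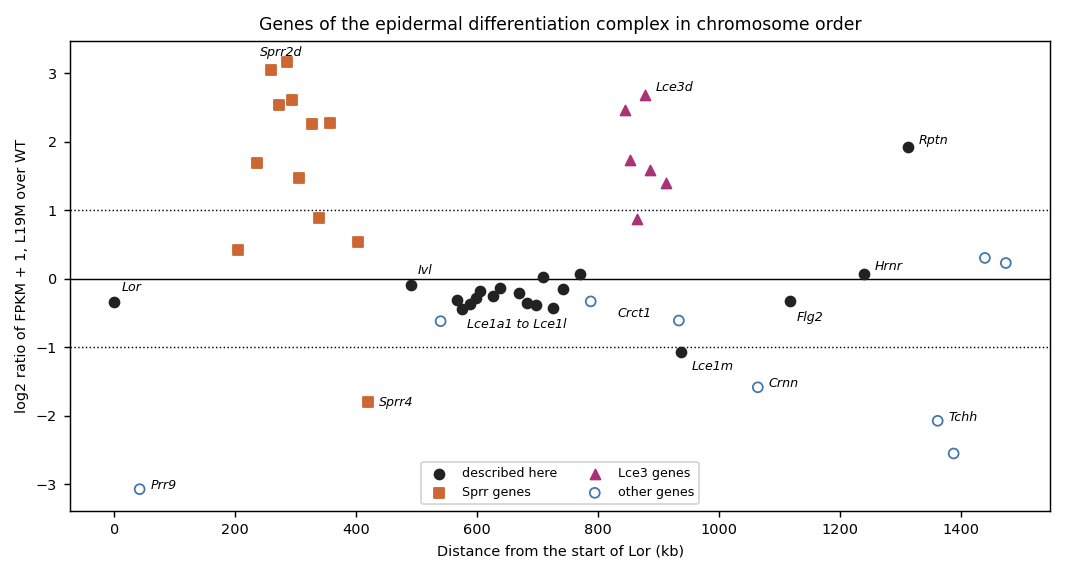
Log2 ratio of FPKM + 1, L19M over WT, of the 47 measured genes between Lor and S100a10 on chromosome 3 against distance from the start of Lor in kb, with dotted lines at 2-fold. Filled circles, the genes described here, stay between the dotted lines except Rptn (1.92) and Lce1m (-1.06), while most Sprr genes (squares) and Lce3 genes (triangles) lie above and Prr9 and Tchh (open circles) below.

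Other lists of the same pathway differed in their calls. Over all measured genes, 0.532% were called higher and 1.71% lower. A list of this size with none or 1 called cannot be set apart from those shares. Of 12 measured Sprr genes 8 were higher and 1 lower (median log2 ratio 1.98), and of 6 measured Lce3 genes 5 were higher, with a median of 1.67. Of 10 other measured genes of the complex, 4 were lower and none higher (median -0.61). These were Prr9 (266 FPKM in WT, 30.8 FPKM in L19M), Tchhl1 (15.9 and 1.88 FPKM), Tchh and Crnn (18.2 and 5.40 FPKM), of which Tchh is a hair gene. None of 14 measured transglutaminases, kallikreins and related protease genes was called, and their median was -0.19. At 1.5-fold, 3 of the 14 were lower (21.4%, against 4.07% of all measured genes) and none was higher. The members of that list furthest from 0 were the protease inhibitors Cst6 (142 FPKM in WT, 73.5 FPKM in L19M) and Spink5 (378 and 207 FPKM). None of 12 measured desmosome genes was called (median -0.10), and 1 of 21 barrier lipid genes was, Fa2h, lower (15.3 and 2.83 FPKM; median -0.20).

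Regulators of late differentiation were near equality. Of 24 measured regulators none was called, 17 were above 0 and 7 below, and the median log2 ratio was 0.05. Over all measured genes 0.532% were called higher and 1.71% lower, so none called in 24 cannot be set apart from those shares. Among those furthest from 0 were Hopx (205 FPKM in WT, 305 FPKM in L19M) and Elf3 (1.69 and 2.62 FPKM). Layers below the granular layer had medians of -0.04 (15 measured spinous genes, 1 called lower) and 0.18 (15 basal genes, none called). Relative to the spinous median, the median of the 35 genes was -0.12.

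**Figure D5:**
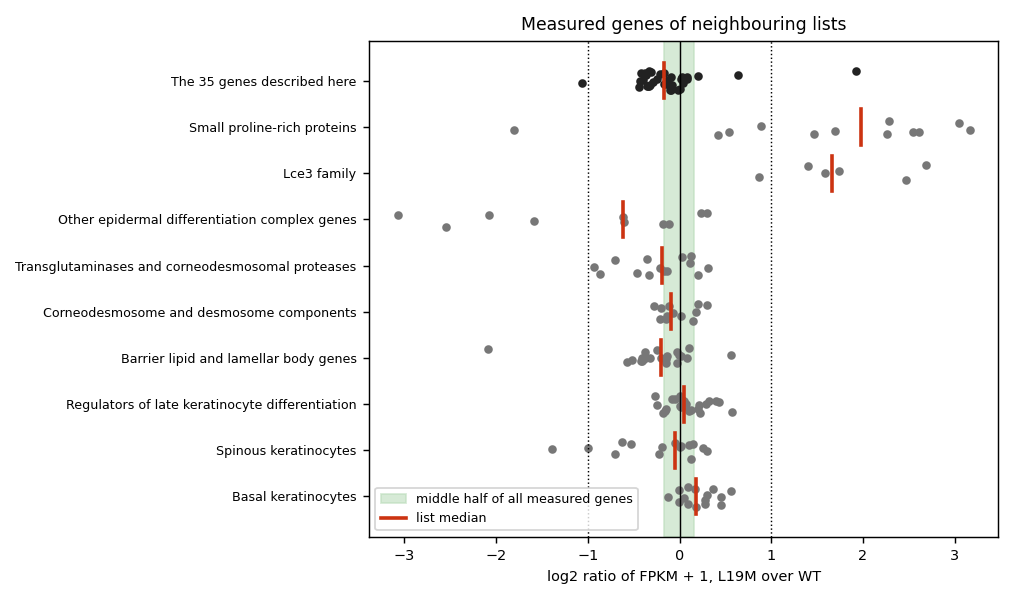
Log2 ratio of FPKM + 1, L19M over WT, of the 35 genes and of the measured genes of 9 other lists (1 point per gene, vertical bars for medians, a band for the middle 50% of all measured genes, dotted lines at 2-fold). Most of the 35 genes gather near 0 (median -0.17), as do most genes of the protease, desmosome, barrier lipid and regulator lists. The Sprr and Lce3 medians are 1.98 and 1.67.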

How the data were processed

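Poly(A)-selected RNA of neonatal epidermis was sequenced from 1 WT and 1 L19M library, per the labels' protocols. The deposited table gives FPKM (headed as raw data), quantile-normalized log2 values and a fold of L19M over WT from them, all made by the authors, per the file headers and information sheet. The deposited transcript widths (in bases, another column of the authors' table) were used to estimate fragments. The submitters' processing notes list Cufflinks, edgeR and R 3.5.1 without saying what each did, and no source used here names an aligner. The information sheet gives mm10 and the notes GRCm39. For all 28 listed genes with a RefSeq GRCm38.p6 promoter, the row's start lay within 10 bases of the RefSeq start, so coordinates are given as mm10.

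FPKM ratios, list counts and medians were computed with Python 3.11.15, pandas 2.3.3 and scipy 1.17.1. Fragments came from FPKM steps in transcripts of at least 1000 bases: values of up to 20 fragments were within 0.1 of whole for 84.0% in WT and 83.5% in L19M, with a constant of 207 and 211 bases taken from transcript length. Shorter transcripts, such as Lce1 and Krtdap, rest on that extrapolation. Intervals are Clopper-Pearson. Promoters were aligned with biopython 1.88. The procedure was tested on simulated data that held counting noise only and known changes larger than those of Lce1m and Nccrp1. That test does not bear on the recovery of smaller differences or on the spread between animals. The listed genes and other lists were chosen with earlier results of these data known. All 35 genes are named. From other lists, genes came from the 3 with the largest absolute log2 ratio, where a result turned on them. Crct1, Crnn, Sprr4, Krt71, Krt25 and Krt27 were named outside that rule after their values were seen. Foxn1, Krt1 and Krt10 were named whatever their values. Alternatives covered pseudocount, low-value filter, fold and scaling.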

Additional observations from a re-analysis of the deposited data

How the results depend on the processing

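No paired analysis was possible because each genotype has 1 library, and leaving out a replicate was not possible for the same reason. Rptn as the 1 higher and Lce1m as the 1 lower gene at 2-fold were found under all 8 alternatives of pseudocount, filter and scaling, with log2 ratios from 1.67 to 1.98 for Rptn and from -1.07 to -1.01 for Lce1m. At 1.5-fold, 2 genes were higher. The median log2 ratio of the 35 genes was -0.11 with equal FPKM totals, -0.16 from the authors' normalized values, -0.12 relative to the spinous median and -0.094 without the Lce1 family. The Lce1 family sum ratio was 0.719 with equal totals and 0.712 relative to the spinous median. Of 280 single-gene values under these alternatives, 40 moved by more than their counting error and none of the called genes changed sign. Nearly all of these moves came with equal FPKM totals or relative to the spinous median. The low-value filters cannot change a single-gene ratio, and a pseudocount cannot change its sign, so the share of 40 in 280 understates the effect of scaling. A pseudocount of 0.1 raised the calls over all measured genes from 63 higher and 203 lower to 120 and 297, and a pseudocount of 10 lowered them to 26 and 67, while the calls among the 35 did not change.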

Other observations

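Lce6a and 2310050C09Rik, which flank the Lce1 cluster and are not among the 35 genes, were named for their position after their values were seen. Lce6a, another late cornified envelope gene, had 252.5 FPKM in WT and 164.1 in L19M, a log2 ratio of -0.62. 2310050C09Rik had 421 and 335 FPKM, a log2 ratio of -0.33. Both lay below 0, as did 11 of the 13 Lce1 genes of the cluster between them, and neither met the 2-fold rule. Lce6a met the 1.5-fold rule, which none of those 13 genes did.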
